A study of Rattus norvegicus with 6 samples.

Results

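The genes described are 10 rat genes of the transforming growth factor beta (TGF-beta) system: the ligands Tgfb1, Tgfb2 and Tgfb3, the activin subunit Inhba, the latent TGF-beta binding proteins Ltbp1, Ltbp2, Ltbp3 and Ltbp4, and the receptors Tgfbr1 and Tgfbr2. They were chosen by symbol, through the RefSeq accession of each non-control probe, and all 10 were found among 15443 named genes on the array. The brightest probe of a gene stood for it, and that probe was well above background on all 6 arrays for each of the 10 genes.

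TGF-beta ligands are secreted in an inactive form, wrapped in their own propeptide, and a latent binding protein anchors this complex to fibrillin and fibronectin in the matrix. Integrins, proteases and thrombospondin release the ligand, which binds the type II receptor (Tgfbr2), which in turn activates the type I receptor (Tgfbr1) and the SMAD proteins. In the heart the system is known for turning fibroblasts into contractile, matrix-producing myofibroblasts after infarction. Activin A, the dimer of the Inhba product, acts through related receptors and is held in check by follistatin.

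The series measured total RNA from Sprague Dawley rats aged 13 weeks on 6 one-colour arrays, to follow adipose-derived stem cells (ADSCs) carrying the positron-emitting tracer 124I-HIB in infarcted hearts and in culture. Cultured ADSCs gave 1 array with the tracer (labelled) and 1 without it (unlabelled), both at 14 days of culture. Of the 4 myocardial arrays, 2 came from infarcted myocardium injected with 124I-HIB-labelled ADSCs (treated, replicates 1 and 3 in the labels), 1 from infarcted myocardium injected with PBS, and 1 from sham-operated myocardium. Tissue was taken at 21 days, counted in the labels from the sham operation for all 4 arrays, and no infarcted array without an injection was analysed here. The labels state neither which part of the heart was taken nor whether a sample pools animals, nor whether the treated replicates came from separate animals. The spread behind each p-value is therefore that of 2 samples and could be purely technical.

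Values are log2 processed signals relative to the array's own 75th percentile, so 0 stands for the brightness at that percentile, and a difference of 1 is 2-fold. Levels of different genes are not set against each other, since each probe has its own brightness. The 75th percentile lay at a signal between 761.7 in sham and 2587 in labelled cells, the share of probes well above background between 64.4% and 69.4%, with 0 saturated spots. Precision is limited by how few arrays there are. All 7 ventricular markers were well above background on each myocardial array, with a summed signal of 1420 to 2180 times the 75th percentile, against 2.62 to 2.73 in the cells, where Myh6, Myl2 and Myl3 were not well above background. The ventricular sum was highest in sham, at 2180, against 1420 and 1660 in treated replicates 1 and 3 and 1570 in PBS. Each of the 7 was lower than sham in PBS (median -0.47) and in both treated arrays (median -0.45). Of all features, 55.2% and 43.5% were lower in these comparisons. All 6 stromal markers were measured in both cell arrays, and of 5 haematopoietic markers 4, among them Ptprc, were not well above background there.

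The PBS array stood apart in its content of atrial and other tissue markers. The summed signal of 6 atrial cardiomyocyte markers was 143 to 166 times the 75th percentile in the treated arrays, 456 in PBS and 171 in sham. All 6 were well above background in PBS, against 3 and 4 in treated replicates 1 and 3 and 4 in sham. The atrial sum hides members that diverged. In PBS minus sham Myl7, Mybphl and Nppa differed by 8.07, 6.84 and 3.70, and Myl4, the brightest in sham, by -0.23. In treated minus sham the means were 1.89 for Myl7, 1.44 for Nppa and -0.34 for Myl4. Mesothelial markers (3 of 5 on the array) summed to 0.378 to 0.440 in treated, 2.46 in PBS and 0.402 in sham. Among them Wt1 differed by -0.07 in PBS minus sham, and Msln and Krt19 were not well above background in sham. Chondrocyte markers (4 of 6) summed to 0.125 to 0.133 in treated, 0.367 in PBS and 0.103 in sham. In PBS minus sham Chad and Comp differed by 2.68 and 1.93, and Col2a1 by 0.30. Acan was not well above background on any array. Schwann cell markers (all 6) summed to 0.551 and 0.980 in treated replicates 1 and 3, 1.51 in PBS and 0.578 in sham. Fibroblast markers (6 of 7) differed less, at 45.3 to 50.3 in treated, 61.3 in PBS and 53.8 in sham, as did macrophage markers (all 6), which ran from 1.41 to 1.60 over the 4 arrays. The smooth muscle sum was 64.3 and 60.8 in treated replicates 1 and 3, 55.1 in PBS and 63.2 in sham, yet its members diverged: in PBS minus sham the contractile genes Acta2, Tagln and Myh11 differed by 1.94, 0.86 and 0.73, and Smtn and Des by -0.19 and -0.29. The part of these markers in the values below was not tested.

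**Figure D1:**
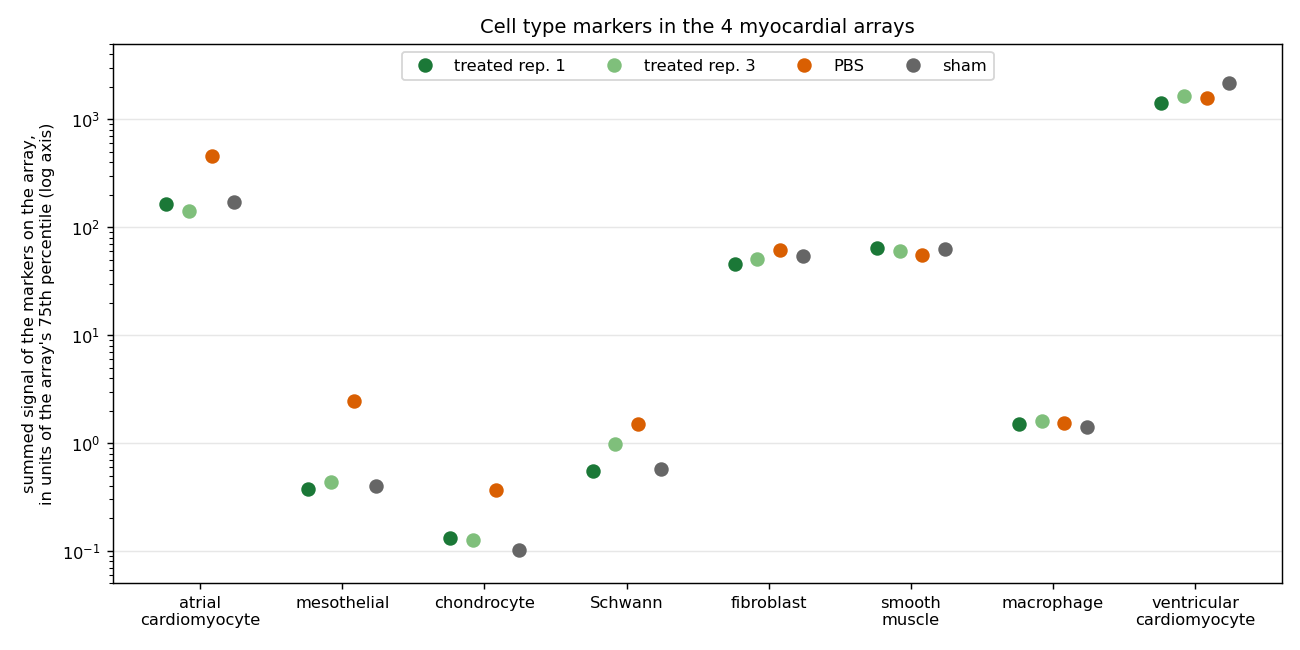
Summed signal of cell type markers (vertical log axis, in units of the array's 75th percentile) on the 4 myocardial arrays, 1 point per array. The PBS point lies above the other arrays for the atrial, mesothelial, chondrocyte and Schwann lists (456 against 143 to 171 for the atrial list), while the fibroblast, smooth muscle and macrophage sums lie close together. A sum can hide members that diverge, as Acta2 (1.94) and Des (-0.29) did in PBS minus sham.

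The promoters of 4 genes are shown: those of Ltbp2, Tgfb2 and Inhba, which were more than 2-fold higher in PBS than in sham myocardium, and that of Ltbp4, the one gene of the 10 that was 2-fold lower in cultured cells. Sequences are from RefSeq (build GRCr8), the 250 bases before the start site that its table gives, read 5′ to 3′ on the gene's strand. Capitals mark matches, on either strand, to any of 6 motifs searched by their letters: the TATA box TATAAA, the AP-1 site TGANTCA, the cAMP response element TGACGTCA, the GC box GGGCGG, the Smad box CAGAC and the TEAD site CATTCC. Ltbp2 lies at chr6:110257299-110257548, Tgfb2 at chr13:100792686-100792935, Inhba at chr17:53804509-53804758 and Ltbp4 at chr1:91759808-91760057, all on the minus strand.
Ltbp2: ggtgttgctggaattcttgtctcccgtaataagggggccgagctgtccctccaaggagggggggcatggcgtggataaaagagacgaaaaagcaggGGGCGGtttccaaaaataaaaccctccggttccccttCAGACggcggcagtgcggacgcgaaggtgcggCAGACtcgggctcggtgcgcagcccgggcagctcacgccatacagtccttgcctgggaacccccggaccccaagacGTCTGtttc
Tgfb2: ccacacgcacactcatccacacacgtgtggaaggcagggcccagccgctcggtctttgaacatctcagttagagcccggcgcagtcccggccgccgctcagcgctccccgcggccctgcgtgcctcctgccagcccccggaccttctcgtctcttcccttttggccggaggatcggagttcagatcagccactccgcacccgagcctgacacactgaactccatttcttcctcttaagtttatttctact
Inhba: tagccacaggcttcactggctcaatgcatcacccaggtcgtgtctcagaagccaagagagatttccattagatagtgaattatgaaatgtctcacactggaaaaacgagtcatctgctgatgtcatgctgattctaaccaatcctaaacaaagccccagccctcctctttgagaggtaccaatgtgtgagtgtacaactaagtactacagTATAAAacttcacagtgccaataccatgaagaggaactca
Ltbp4: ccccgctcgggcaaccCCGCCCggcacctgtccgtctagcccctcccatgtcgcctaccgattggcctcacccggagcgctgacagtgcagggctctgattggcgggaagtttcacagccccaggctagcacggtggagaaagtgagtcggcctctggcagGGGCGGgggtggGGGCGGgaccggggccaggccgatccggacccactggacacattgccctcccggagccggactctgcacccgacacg
The Ltbp2 window held 3 Smad boxes, which begin 117, 85 and 9 bases before the start, and 1 GC box. The Inhba window held a TATA box that begins 40 bases before the start, a motif found in 12.9% of 33469 rat promoters. The Ltbp4 window held 3 GC boxes, and the Tgfb2 window held none of the 6 motifs. All 10 genes had an entry in the table. Over these 10 windows, GC boxes were found in 5 (30.5% of all promoters), Smad boxes in 2 (42.9%), in Ltbp1 and Ltbp2, and the cAMP response element in 1, Ltbp1 (1.59%). AP-1 sites (6.34% of all promoters) and TEAD sites (12.1%) were found in none. GC content ran from 43.6% in Inhba to 75.6% in Tgfbr1, against a median of 51.2% over all promoters. No 2 matches overlapped, and a match describes letters only.

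**Figure D2:**
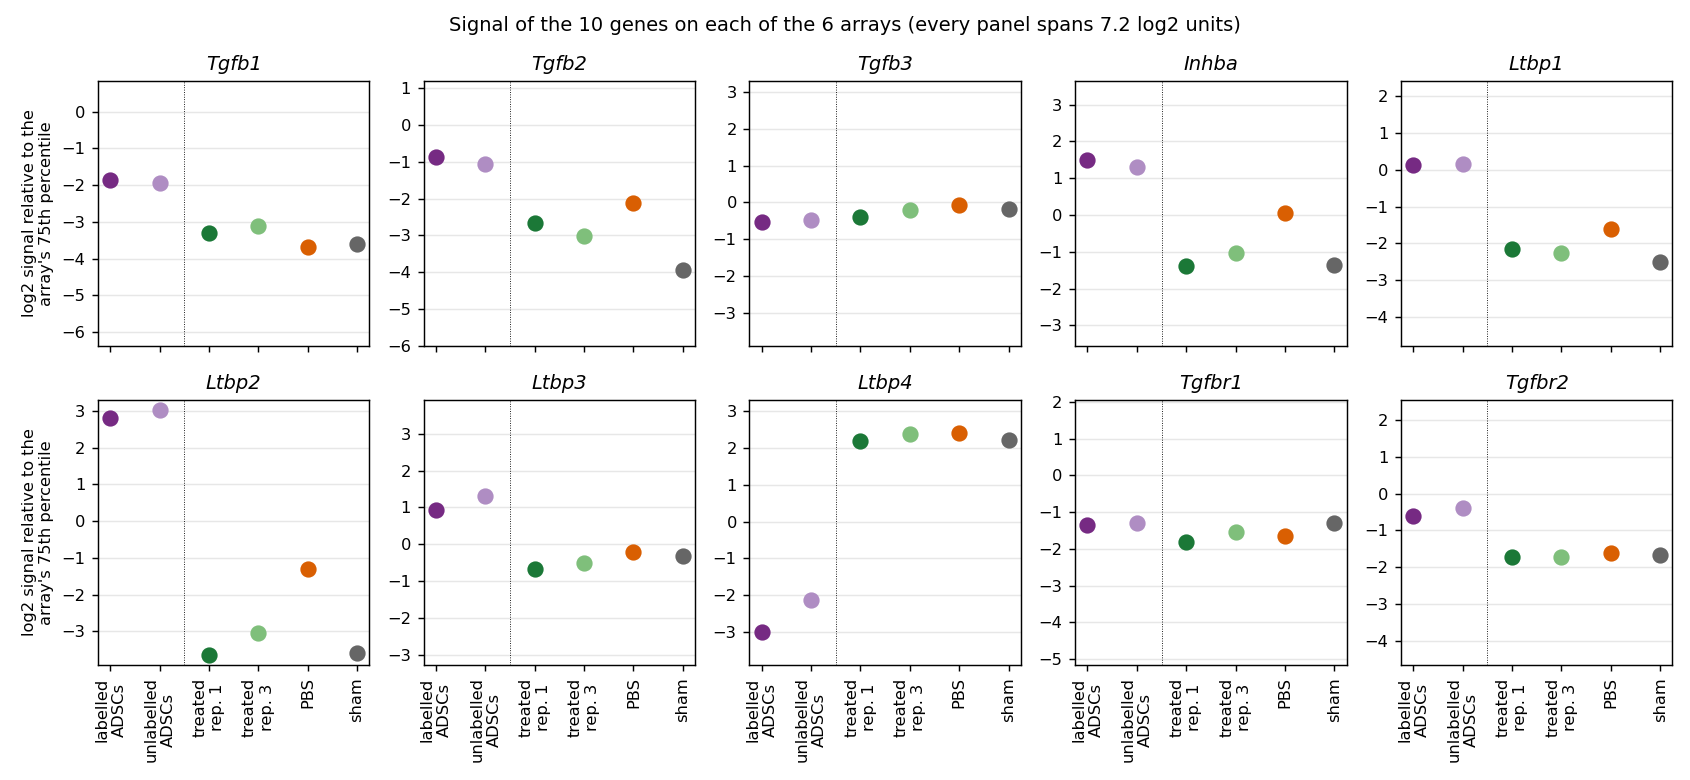
Log2 signal relative to the array's 75th percentile (vertical axes, all of the same span) for each of the 10 genes on the 6 arrays, 1 point per array. Ltbp2, Inhba and Tgfb2 are higher in PBS than in the other myocardial arrays, most genes are higher in ADSCs, and Ltbp4 is lower there.

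The comparison of PBS-injected infarct with sham myocardium asked how infarction changed the tissue without transplanted cells. A subset of the system stood higher on the PBS array: Ltbp2, Tgfb2 and Inhba past 2-fold and Ltbp1 just short of it, while Tgfb1, Tgfb3, Ltbp3, Ltbp4 and both receptors lay less than 2-fold from sham in either direction. Thus 3 of 10 genes were 2-fold higher and 0 were 2-fold lower, where 2.23% and 1.44% of 17255 features were (3.67% in either direction). By any amount, 8 of the 10 were higher and 2 lower, against 44.8% and 55.2% of features. The median difference of the 10 genes was 0.15, against -0.046 over all features. With 1 array per group there is no test.

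Among the ligands, Tgfb2, the isoform known for its part in heart valve and septum formation, stood at -2.67 and -3.02 in treated replicates 1 and 3, at -2.11 in PBS and at -3.94 in sham. All 3 infarcted arrays lay above sham, PBS highest, with a PBS minus sham difference of 1.83 (3.55-fold). Tgfb2 was read from 1 spot per array, with a processed signal of 49.7 in sham. Another background correction (normexp) gave 0.84, and its second, dimmer probe was not well above background in sham.

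Inhba, the activin subunit, stood at -1.40 and -1.04 in treated replicates 1 and 3, at 0.055 in PBS and at -1.35 in sham. The PBS array alone was high, by 1.40 over sham (2.65-fold), and the treated arrays lay on either side of sham. The duplicate spots of the probe differed by a SD of 0.022 in PBS and 0.24 in sham.

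Tgfb1, the isoform best known for scarring, stood at -3.29 and -3.11 in treated replicates 1 and 3, at -3.68 in PBS and at -3.60 in sham. PBS and sham differed by -0.086, less than the spread of the replicate spots, of which this probe has 10 per array (SD 0.32 in PBS and 0.17 in sham). The PBS spots ran from -4.26 to -3.20, so they overlapped those of treated replicate 1, at -3.45 to -3.10. Tgfb3, the third isoform, stayed within a range of 0.34 over the 4 myocardial arrays, with a PBS minus sham difference of 0.11.

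The latent binding proteins divided in the same way. Ltbp2, an elastic fibre protein that, unlike its relatives, does not bind the latent ligand, stood at -3.63 and -3.05 in treated replicates 1 and 3, at -1.30 in PBS and at -3.59 in sham. It had the largest difference of the 10 genes, 2.29 (4.88-fold) in PBS over sham, while the treated arrays lay close to sham. Its second probe was well above background only in PBS among the myocardial arrays, and normexp gave 1.45.

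Ltbp1, the main anchor of latent TGF-beta, stood at -2.15 and -2.27 in treated replicates 1 and 3, at -1.62 in PBS and at -2.52 in sham, so PBS was 0.90 higher than sham (1.86-fold) and both treated arrays lay between them. This difference was 0.55 with normexp. Ltbp3 and Ltbp4, the latter needed for elastic fibre assembly, differed between PBS and sham by 0.11 and 0.18, and Ltbp4 had the narrowest range of the binding proteins over the 4 myocardial arrays, 0.22.

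The receptors were nearly level. Tgfbr1, the type I receptor kinase, stood at -1.82 and -1.53 in treated replicates 1 and 3, at -1.64 in PBS and at -1.29 in sham, so sham was the highest of the 4. Tgfbr2, the ligand-binding type II receptor, lay between -1.73 and -1.62 on all 4 arrays by its brighter probe. Its 2 probes disagreed: the dimmer one stood at -3.39 and -3.34 in treated replicates 1 and 3, -2.71 in PBS and -3.38 in sham, a PBS minus sham difference of 0.67 against 0.060 by the brighter probe (-0.042 with normexp).

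**Figure D3:**
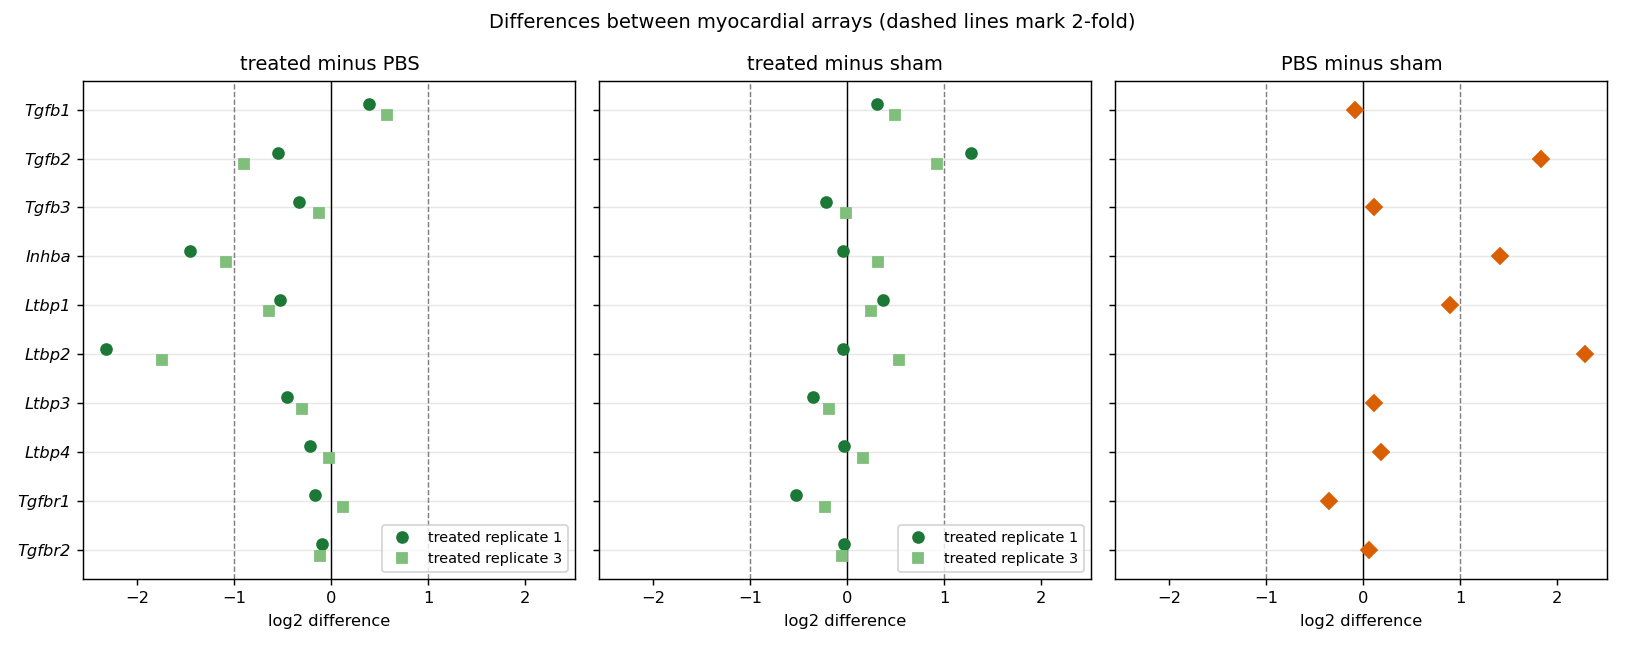
Log2 differences (horizontal axes) of the 10 genes between myocardial arrays: each treated replicate minus PBS, each treated replicate minus sham, and PBS minus sham, with dashed lines at 2-fold. Ltbp2 and Inhba lie past 2-fold below PBS in both treated replicates (-2.33 and -1.75 for Ltbp2), and Tgfb2, Inhba and Ltbp2 lie past 2-fold above sham in PBS.

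Other genes of the pathway, from 6 lists, were described in the same way. Of 15 measured target genes 3 were 2-fold higher in PBS than in sham and 0 lower (median 0.41): Acta2, smooth muscle actin, by 1.94, Postn, the matrix protein periostin, by 1.55, and Ccn2, connective tissue growth factor, by 1.30. Of 8 other measured ligands 2 were 2-fold higher, Bmp7 by 1.37 and Bmp2 by 1.28, both bone morphogenetic proteins (median 0.60). Of 11 measured inhibitors only Fst, the activin antagonist follistatin, passed 2-fold, at 1.35 (median 0.32). None of 12 measured activators and anchors (median 0.28), 9 other receptors (0.21) or 6 Smads (0.30) was 2-fold apart. Over all features 2.23% were 2-fold higher and 1.44% lower. A count of 0 in such short lists is near that share and nothing particular to them. Of the Smads, Smad3 was not well above background on any array.

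The comparison of treated with PBS-injected infarcts asked how the tissue differed once labelled ADSCs had been given. The genes that stood high in PBS were lower in both treated arrays: Ltbp2 by a mean of -2.04 ± 0.41 (SD, n = 2; limma adjusted p = 0.332) and Inhba by -1.27 ± 0.26 (adjusted p = 0.364), and neither passed the test. These 2 of 10 genes were 2-fold lower in both treated arrays and 0 were higher, where 0.813% and 0.433% of 17338 features were (1.25% in either direction). By any amount, 8 were lower in both treated arrays and 1 higher in both, against 35.9% and 37% of features. The median difference of the 10 genes was -0.31, against 0.00010 over all features. This comparison shares its PBS array with PBS against sham and its treated arrays with treated against sham, so the values of the 3 comparisons are not independent of each other.

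By replicate, Ltbp2 differed from PBS by -2.33 and -1.75 in treated replicates 1 and 3, and Inhba by -1.45 and -1.09. Both replicates lay below PBS by more than they lay apart. With normexp, Ltbp2 passed the test (-1.56, limma adjusted p = 0.0321), and Inhba did not (-1.11, adjusted p = 0.0674) and was no longer 2-fold lower in both replicates.

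Tgfb2 differed from PBS by -0.73 ± 0.25 (SD, n = 2; limma adjusted p = 0.503) and Ltbp1 by -0.59 ± 0.085 (adjusted p = 0.483), each lower in both replicates. Tgfb1 was the one gene of the 10 above PBS in both treated replicates, by 0.39 and 0.57 (mean 0.48 ± 0.13, adjusted p = 0.564). Tgfb3, Ltbp3, Ltbp4 and Tgfbr2 were below PBS in both replicates, with means between -0.38 and -0.10, and Tgfbr1 was on either side of it. The dimmer Tgfbr2 probe gave -0.65 (adjusted p = 0.455) against -0.10 by the brighter one.

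None of 19603 features passed limma at an adjusted p under 0.05, 0% of those tested, while 1883 (9.61%) had an unadjusted p under 0.05, among them 4 of the 10 genes (Ltbp2, Inhba, Ltbp1 and Tgfb2). With 1 residual degree of freedom, which comes from the treated arrays, the fit takes the single PBS array to vary as they do. On simulated data this fit recovered 0% of differences of 1 log2 unit and 2% of differences of 2 log2 units. Not passing it therefore says little about differences of that size. A normexp background gave 108 features and a trended, robust spread 47. Replicates 1 and 3 were themselves 2-fold apart at 1.36% of 17601 features, and the 10 genes differed between them by at most 0.58, for Ltbp2.

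In the pathway lists, 1 gene each of the other ligands, inhibitors and targets was 2-fold lower in both treated arrays, and none was higher. Over all features these shares were 0.813% and 0.433%. Bmp7 differed by -1.55 ± 0.060 (SD, n = 2; limma adjusted p = 0.236), Fst by -1.72 ± 0.51 (adjusted p = 0.422) and Postn by -1.67 ± 0.24 (adjusted p = 0.310). By any amount, 35.9% of features were lower than PBS in both treated arrays and 37% higher. Of the 15 target genes, 10 were lower than PBS in both treated arrays and 2 higher (median -0.37). Of 12 activators and anchors 8 were lower in both and 2 higher (median -0.35), and of 11 inhibitors 9 and 0 (median -0.35). Smads (6 measured, median -0.038) and other receptors (9 measured, median 0.018) lay near 0. Of the markers measured on these 3 arrays, all atrial (3), chondrocyte (3), Schwann (5) and fibroblast (6) markers were lower in both treated arrays than in PBS. Some of these mean differences were small, as for Col2a1 (-0.069) and Myl4 (-0.11). The fibroblast median was -0.45. Of 6 macrophage markers 4 were lower in both and 2 higher. The 1 mesothelial marker so measured, Wt1, differed by 0.069, so the lower mesothelial sum came from Msln and Krt19, not both measured in either treated array. Of 5 smooth muscle markers, Myh11, Acta2 and Tagln were lower in both treated arrays and Smtn and Des higher. Fewer cells of a type cannot be told apart from less RNA per cell in such tissue.

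Treated against sham myocardium asked what remained different from uninfarcted tissue. Tgfb2 was the highest of the 10 genes relative to sham, by 1.27 and 0.92 in treated replicates 1 and 3 (2.14-fold on average, with a SD of 0.25 log2 units, n = 2; limma adjusted p = 0.442), and no gene of the 10 was 2-fold apart in both replicates, where 0.950% of 17052 features were (0.557% higher and 0.393% lower). By any amount, 3 were higher in both replicates and 4 lower in both, against 31.9% and 43.5% of features. With normexp the Tgfb2 mean was 0.34. Inhba (0.13 ± 0.26) and Ltbp2 (0.25 ± 0.41) lay on both sides of sham, within the spread of the treated pair.

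Tgfb1 differed from sham by 0.40 ± 0.13 (SD, n = 2; limma adjusted p = 0.586) and Ltbp1 by 0.31 ± 0.085 (adjusted p = 0.626), both above sham in each replicate. Tgfbr1 (-0.38 ± 0.21) and Ltbp3 (-0.27 ± 0.12) were below sham in each, with adjusted p = 0.628 and 0.658, and Tgfb3, Ltbp4 and Tgfbr2 had means between -0.12 and 0.062. For Tgfbr1 the duplicate spots of treated replicate 3 overlapped those of sham. The normexp value of Tgfb1 was -0.0079, so its direction depended on the background correction. The median of the 10 genes was 0.097, against -0.045 over all features. No feature passed limma (0% of 19603; 1878, or 9.58%, at an unadjusted p under 0.05, with Tgfb2 the one gene of the 10; with normexp 56, and 48 under a trended, robust spread). No gene of the 6 pathway lists was 2-fold apart in both replicates, where 0.95% of features were. This absence, like that among the 10 genes, is near the share of all features and nothing particular to them.

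Cultured ADSCs were set against myocardium to give the levels of the same genes in the transplanted cell type. Ltbp2, Ltbp1, Inhba, Tgfb2, Tgfb1, Ltbp3 and Tgfbr2 were higher in the cells, Ltbp4 was far lower, and Tgfb3 and Tgfbr1 did not pass the test. In limma, 8 of the 10 genes passed at an adjusted p under 0.05, where 66.5% of 21173 features did (31.6% higher and 34.9% lower; 70.8% at an unadjusted p under 0.05, against 8 of the 10), so the count itself is not far from that of all features. By the stricter rule that both cell arrays lie 2-fold from all 4 myocardial arrays, 7 genes were higher and 1 lower, against 14.2% and 15.9% of 15886 features (30.1% in either direction). Without the 2-fold limit, 7 were higher and 2 lower without overlap, against 41.4% and 38.9% of features. The median difference was 1.54, against 0.026 over all features. Myocardium holds many cell types, so these differences set a culture against a mixture. The 1 residual degree of freedom of this fit also came from the treated myocardial arrays. No variation between cell cultures therefore entered the standard errors and p-values below, and the cells are taken to vary as those arrays do.

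Ltbp2 stood at 2.82 in labelled and 3.02 in unlabelled cells, against -3.63 to -1.30 in the 4 myocardial arrays. It rose by 5.66 (limma SE 0.23, 50.6-fold, adjusted p = 0.00124), with a gap of 4.12 between the nearest cell and tissue arrays. Ltbp4 stood at -3.00 in labelled and -2.13 in unlabelled cells, against 2.18 to 2.40 in myocardium. It fell by 4.86 (SE 0.14, 29.1-fold lower, adjusted p = 0.000809), so these 2 binding proteins, both tied to elastic fibres, ran in opposite directions.

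Ltbp1 stood at 0.12 in labelled and 0.15 in unlabelled cells, against -2.52 to -1.62 in myocardium, and rose by 2.25 (limma SE 0.13, adjusted p = 0.00188). Ltbp3 stood at 0.93 and 1.30 in labelled and unlabelled cells, against -0.66 to -0.20 in myocardium, and rose by 1.48 (SE 0.13, adjusted p = 0.00416). Neither gene's cell and tissue values overlapped.

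Inhba stood at 1.49 in labelled and 1.31 in unlabelled cells, against -1.40 to 0.055 in myocardium, and rose by 2.23 (limma SE 0.17, adjusted p = 0.0032). Tgfb1 stood at -1.86 and -1.95 in labelled and unlabelled cells, against -3.68 to -3.11 in myocardium, and rose by 1.59 (SE 0.14, adjusted p = 0.0038). Of the tissue arrays, PBS came nearest to the cells for Inhba but was the farthest for Tgfb1.

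Tgfb2 stood at -0.86 in labelled and -1.05 in unlabelled cells, against -3.94 to -2.11 in myocardium, and rose by 2.01 (limma SE 0.17, adjusted p = 0.00372). Its second probe, not well above background in sham, did not pass (0.44, adjusted p = 0.170) and overlapped between cells and tissue. Tgfbr2 rose by 1.19 (SE 0.12, adjusted p = 0.0053), and by 0.70 by its dimmer probe (adjusted p = 0.0167), where the gap between the nearest arrays was 0.11. Tgfb3 differed by -0.31 (SE 0.14, adjusted p = 0.138; 0.0473 with a trended, robust spread), and Tgfbr1 differed by 0.22 (SE 0.16, adjusted p = 0.284).

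**Figure D4:**
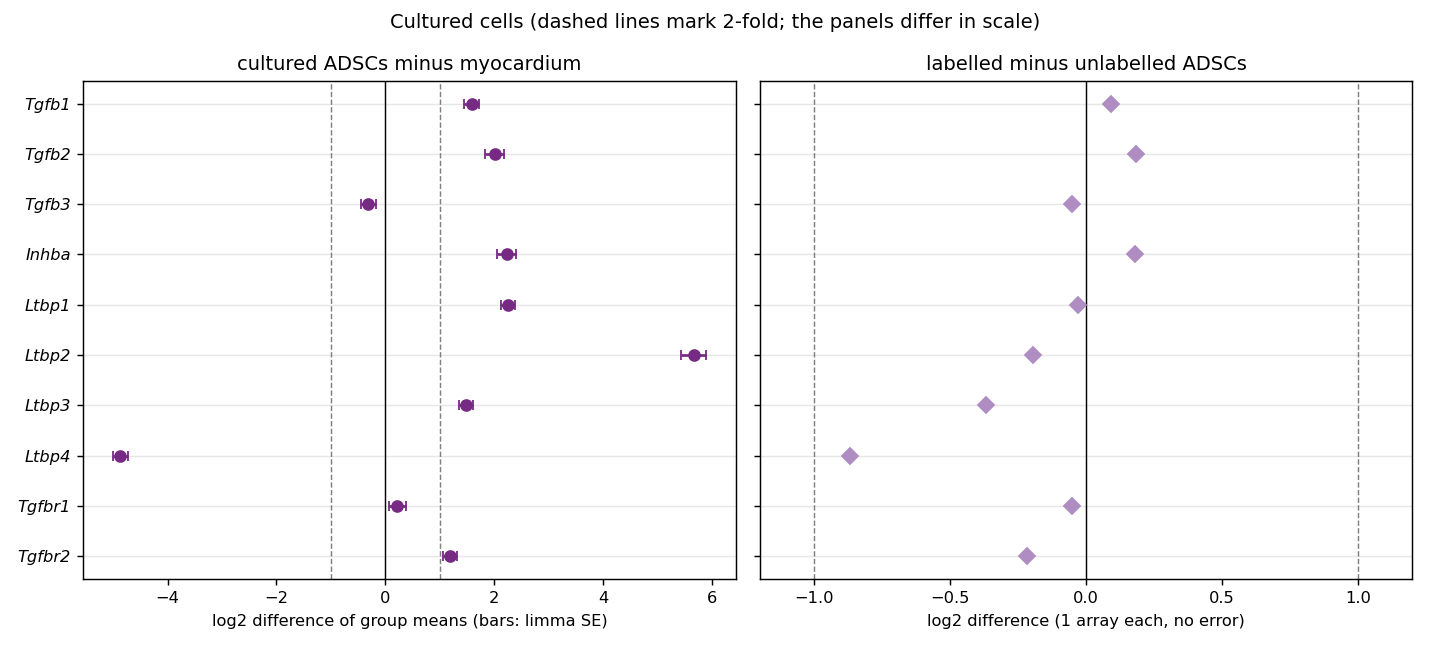
Log2 differences (horizontal axes, on different scales) of the 10 genes: cultured ADSCs minus myocardium, as the difference of group means with limma standard errors, and labelled minus unlabelled ADSCs, 1 array each. The standard errors rest on the spread of the treated myocardial arrays, not on that of the cells. Ltbp2 (5.66) and Ltbp4 (-4.86) lie at opposite ends on the left, and no gene reaches 2-fold on the right, where Ltbp4 comes closest (-0.87).

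Around these genes in the cells, 11 of 15 measured target genes were 2-fold higher and 2 lower than in all 4 tissue arrays, with the inhibitor of metalloproteases Timp1 at 5.36, Postn at 4.59 and the collagen Col1a1 at 4.31. The 2 lower ones, named after their values were seen, were elastin (Eln, -3.22) and the transcriptional regulator Id1 (-1.41). By the same rule, 14.2% of 15886 features were higher and 15.9% lower (30.1% in either direction). Of 12 activators and anchors 6 were higher and 1 lower: fibronectin (Fn1) by 5.54, the membrane protease Mmp14 by 4.98 and Mmp2 by 2.55, while Nrros, which anchors latent TGF-beta on macrophages and microglia, was lower (-6.49). Of 11 inhibitors well above background on all 6 arrays, 5 were higher and 1 lower. Among these 11, Fst led at 4.81, with the protease Htra1 at 3.83 and the follistatin relative Fstl1 at 3.86. The transcriptional repressor Tgif1 differed by 2.56, while Htra3, named after its value was seen, was lower (-1.95). Of 7 other ligands 3 were higher, with Inhbb, the other activin subunit, at 4.21, Gdf15 at 2.39 and Gdf11 at 1.73, and 2 were lower, Bmp4 (-1.72) and, named after its value was seen, Inha (-1.57), the inhibin subunit. Of 9 other receptors Bmpr1a was higher (1.30) and Acvr2b lower (-2.46), and none of 5 Smads was 2-fold apart. The counts for receptors and Smads did not exceed the share of all features. The counts of all 6 lists leave out genes not well above background on every array. Of those, the inhibitor Grem1 stood at 5.79 and 5.23 in labelled and unlabelled cells, against -7.70 to -5.64 in tissue. Thbs1 (0.70 and 0.46 against -6.78 to -5.98) and Bmpr1b (-0.82 and -0.93 against -7.85 to -7.48) were also higher in cells. Smad9 was lower there (-7.70 and -7.39 against -5.45 to -4.73). These genes left out were named after their values were seen.

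The labelled and unlabelled cells asked whether the tracer changed the cells. None of the 10 genes was 2-fold apart, where 1.03% of 18271 features were (0.438% higher and 0.597% lower). Such a count is near the share of all features and is nothing particular to these genes. By any amount, 3 were higher in labelled cells and 7 lower, against 43.2% and 56.8% of features, and the median difference was -0.051, against -0.041 over all features. Ltbp4 differed most, at -0.87 (1.83-fold lower in labelled cells), with duplicate spots that agreed within a SD of 0.0033 in labelled and 0.0029 in unlabelled cells. Next came Ltbp3 at -0.37, Tgfbr2 at -0.22 and Ltbp2 at -0.20, while Tgfb2 (0.18), Inhba (0.18) and Tgfb1 (0.091) were higher in labelled cells. Tgfb3, Ltbp1 and Tgfbr1 differed by -0.050, -0.030 and -0.052. By its second probe Ltbp2 differed by -0.81 and Tgfb2 by -0.19, the latter in the opposite direction. In the pathway lists 1 gene was 2-fold apart, Eln, which stood at -3.62 in labelled and -2.37 in unlabelled cells, a difference of -1.25. With 1 array each, these values carry no error.

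The genes most like the 3 with the widest myocardial range were found by the smallest Euclidean distance between profiles centred on their own mean over the 6 arrays, among 9744 named genes well above background on all 6. For Inhba these were Fibin (distance 0.32), Cybrd1 (0.38) and Slc39a8 (0.58). For Tgfb2 they were Csrp2 (0.52), Bnc2 (0.55) and Lrrc17 (0.62), and for Ltbp2 Rell2 (0.60), Pdpn (1.01) and Nupr1 (1.02). Each of these 9 genes was higher in both cell arrays than in tissue and, within tissue, highest in PBS. Their choice by likeness to profiles of that shape largely fixed this in advance, so it is no separate result.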

How the data were processed

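Total RNA was purified on Qiagen columns and its Cy3-labelled copy hybridised, per the labels. The submitters' processing notes name Agilent Feature Extraction 11.0.1.1 for the scanner output of each array that the authors deposited, whose intensity values (processed signal, median signal, background) are not normalized between arrays. The authors also deposited a log2 table, and no source used here gives its making. All 6 arrays were read in 1 scan of 1 slide per the file headers, so no batch could be tested. That deposited log2 table follows log2 processed signal (r of 0.9998 or more), with a median of 8.85 on each myocardial array and 9.67 on each cell array. Since these medians differ, it was used as an alternative within tissue and within cells only.

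Control and outlier-flagged spots were left out, log2 processed signals were taken relative to each array's 75th percentile, and spots were averaged per probe. A probe was well above background when at least 0.5 of its spots were. Accessions were matched without version to RefSeq (GRCr8, for names and promoters), since the build in the headers is older, which named 18355 of 30367 probes and left 12012 unnamed. Each gene was read from its brightest probe, and unnamed probes were kept singly (27455 features). Features well above background on all arrays compared were called at 2-fold, in both treated arrays, or between all cell and all tissue arrays. lmFit and eBayes of limma 3.58.1 in R 4.3.3, with Benjamini-Hochberg adjustment over all features, were fitted to the 4 myocardial arrays, and to all 6 for cells against myocardium, over features that 1 array or more measured above background, and tested on simulated data. In the simulated data, treated against PBS recovered 0%, 2% and 86% of differences of 1, 2 and 4 log2 units. Cells against myocardium recovered 0%, 16% and 90%. The normexp alternative used the median signal, with an offset of 50. The 10 genes and the lists were chosen with earlier results of these data known. Named beside the 10 genes are up to 4 list genes past 2-fold per list and comparison, and the 3 closest genes of 3 members. One list gene that the rule names is not reported here. Promoter motifs were chosen after the data were seen. Figures were drawn with matplotlib 3.10.9.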

Additional observations from a re-analysis of the deposited data

How the results depend on the processing

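No paired analysis was possible because the groups compared share fewer than 2 replicate numbers. Counts of the 10 genes past the size threshold changed as follows. With normexp, 2 genes and not 3 were past 2-fold in PBS against sham (without Tgfb2), where 1.39% of features were. In treated against PBS it was 1 (Ltbp2) and not 2, against 0.519% of features. In cells against myocardium it was 5 and not 8 (without Tgfb1, Tgfb2 and Tgfbr2), against 26.6% of features. The second probes, chosen after seeing the data and partly dim in tissue, gave 2 in PBS against sham and 1 (Inhba) in treated against PBS. In cells against myocardium they gave 6, as did the mean of a gene's probes, by which 30% of features were past. Taken singly, the treated replicates gave 2 and 2 against PBS and 0 to 1 against sham (Tgfb2, without replicate 3). In cells against myocardium they gave 8 and 8. Without replicates 1 and 3 in turn, 2.54% and 2.93% of features were past against PBS and 2.40% and 2.17% against sham. The shares in cells against myocardium were 30.9% and 31%. At 1.5-fold, 4 genes were past in PBS against sham (with Ltbp1), where 13.2% of features were. It was 1 in treated against sham (Tgfb2) and 1 in labelled against unlabelled cells (Ltbp4), against 4.32% and 6.51% of features. Features passing limma, 0 as reported, numbered 108 with normexp (1 of the 10 genes, Ltbp2) and 47 with a trended, robust spread in treated against PBS, and 56 with normexp, 48 with a trended spread and 2 in the deposited log2 table in treated against sham. Among settings other than single replicates, directions turned for Tgfbr2 in PBS against sham (-0.042 with normexp), for Tgfb2 in labelled against unlabelled cells (-0.0022 with the mean of its probes, -0.19 by its second probe), for Tgfbr1 in treated against PBS (0.028 with quantile normalization, 0.0070 in the deposited table) and, in treated against sham, for Tgfb1 (-0.0079) and Ltbp2 (-0.11) with normexp and for Tgfbr2 (0.00050 with quantile normalization, 0.0027 in the deposited table, 0.017 by its second probe), and for the median of the 10 genes there (-0.058 with normexp). With a single treated replicate they turned for Tgfbr1 against PBS (0.12 without replicate 1) and, against sham without replicate 3, for Inhba (-0.050), Ltbp2 (-0.041), Ltbp4 (-0.034) and the median (-0.037). The causes were not tested. Background counts past 2-fold fell with normexp, to 240 of the 634 features of PBS against sham, 90 of 216 and 70 of 162 in treated against PBS and sham, and 76 of 189 in the cells. Without the filter on dim probes they were 2311, 827, 813, 1375 and, in cells against myocardium, 7636 against 4777. At 1.5-fold they were 2284, 842, 736, 1190 and 7381 in the same order. A single treated replicate gave 445 and 521 against PBS and 411 and 376 against sham. The deposited table was not run for cells against myocardium. Sham, PBS and both cell conditions have 1 array each.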
